A study of Mus musculus with 18 samples.

Results

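The RNA of 6 genes of the fibroblast growth factor (FGF) family, Fgf1, Fgf2, Fgf7, Fgf10, Fgf18 and Fgf21, was described in mouse bone marrow mesenchymal stromal cells (BMSCs). They were taken by gene symbol from a table of 56691 genes, and each symbol stood on 1 row. All 6 passed the filter on low counts, which left 17631 genes to test. The cells carried the label wt and were isolated from compact bone according to the study's methods. RNA-seq was done on day 4 of culture. The 6 groups of 3 samples were the culture medium CM with FGF9 (CM_F9) and without it (CM), osteogenic induction medium with FGF9 (OI_F9) and without it (OI), and adipogenic induction medium with FGF9 (AI_F9) and without it (AI). FGF9 was given at 20 ng/ml, and its controls at 0 ng/ml. The osteogenic medium held ascorbate-2-phosphate, beta-glycerol phosphate and dexamethasone. The adipogenic medium held dexamethasone, insulin, rosiglitazone, which activates the nuclear receptor PPARG, and IBMX, which blocks phosphodiesterases. The study's methods call its replicates biological. The labels do not say whether the 3 samples of a group came from separate mice or how old the mice were, so p-values measure the spread between these samples.

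FGFs are signalling proteins that bind receptor tyrosine kinases (FGFR1 to FGFR4 in mammals) together with heparan sulfate at the cell surface, or with a klotho protein in the case of the endocrine members. The receptors act through the MEK/ERK and PI3K/AKT pathways, which switch on feedback inhibitors such as the Sprouty proteins. FGF1 and FGF2 lack a classical signal peptide, and FGF2 is widely used to expand stromal cells in culture. FGF7 (keratinocyte growth factor) and FGF10 are made by mesenchymal cells and act mainly on epithelial cells through the IIIb form of FGFR2. FGF18 acts on cartilage and bone. FGF21 is an endocrine factor of liver and fat that signals through FGFR1 with the co-receptor beta-klotho, encoded by Klb. It is known as a target of PPAR receptors and of the stress-response factor ATF4.

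The start regions of 5 of the 6 genes were in the RefSeq promoter table (mouse build GRCm38.p6), and the 250 bases before the start were read. A set of 4 is printed because these genes carry the main contrasts of the data: Fgf21 was higher with FGF9 in AI, Fgf10 and Fgf2 were higher with FGF9 in several media, and Fgf7 was lower. Capitals mark the motifs found.
Fgf21, chr7:45615491-45615740, minus strand: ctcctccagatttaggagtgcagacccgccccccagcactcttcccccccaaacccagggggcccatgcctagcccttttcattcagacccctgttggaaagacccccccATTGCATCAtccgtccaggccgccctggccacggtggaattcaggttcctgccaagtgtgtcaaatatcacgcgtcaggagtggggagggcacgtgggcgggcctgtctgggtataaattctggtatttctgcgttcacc
Fgf10, chr13:118714449-118714698, plus strand: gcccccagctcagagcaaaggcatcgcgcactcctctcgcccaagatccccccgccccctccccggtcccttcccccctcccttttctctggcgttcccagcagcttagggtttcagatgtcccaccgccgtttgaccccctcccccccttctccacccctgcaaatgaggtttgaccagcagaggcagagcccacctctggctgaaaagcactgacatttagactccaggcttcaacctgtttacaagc
Fgf2, chr3:37348403-37348652, plus strand: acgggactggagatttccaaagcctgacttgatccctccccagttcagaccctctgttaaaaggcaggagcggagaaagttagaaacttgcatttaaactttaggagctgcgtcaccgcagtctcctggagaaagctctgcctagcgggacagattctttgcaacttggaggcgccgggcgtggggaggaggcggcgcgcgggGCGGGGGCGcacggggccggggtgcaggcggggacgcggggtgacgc
Fgf7, chr2:126034408-126034657, plus strand: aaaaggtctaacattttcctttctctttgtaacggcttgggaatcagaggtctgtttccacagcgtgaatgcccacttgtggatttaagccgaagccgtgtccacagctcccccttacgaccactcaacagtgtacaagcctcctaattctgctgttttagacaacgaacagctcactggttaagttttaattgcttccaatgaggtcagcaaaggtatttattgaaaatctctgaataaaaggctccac

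The capitals in Fgf21 (ATTGCATCA, bases 140 to 132 before the start) are the reverse complement of TGATGNAAT, the motif of ATF4 paired with a C/EBP protein. Of 32851 promoters of the same length, 0.816% held it on either strand. The capitals in Fgf2 (GCGGGGGCG, bases 47 to 39 before the start) are the motif of the EGR factors, held by 2.57% of promoters. The other motifs searched on both strands were the PPAR direct repeat (2 copies of AGGTCA with 1 base between them, in 0.0335% of promoters), CCGGAAGT (ETS, in 2.88%) and TGANTCA (AP-1, in 6.75%). None of these 3 was in the 250 bases of the 5 genes, Fgf18 included, and Fgf7, Fgf10 and Fgf18 held none of the 5 motifs. The motifs do not overlap each other in these windows and were chosen after the expression values were seen. A match is a run of letters, and binding was not measured.

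Levels are given as FPKM, the count divided by gene length and library total, so that they can be compared between genes. Fgf7 was the most abundant of the 6 ligands in CM_F9, CM, OI and AI, and Fgf2 in OI_F9 and AI_F9. Fgf7 made up 42.1% ± 0.801 of the summed FPKM of the 6 ligands in CM_F9 and 78.6% ± 0.913 in CM (SD, n = 3 each). In OI_F9 it made up 31.4% ± 1.86, against 69.4% ± 2.01 in OI, and in AI_F9 26.6% ± 1.30, against 70.1% ± 2.18 in AI (SD, n = 3 each). Fgf7 was above all other ligands together in each control group, and in no FGF9 group. The share of Fgf2 was 37.6% in CM_F9 and 13.0% in CM, 41.4% in OI_F9 and 21% in OI, and 49.5% in AI_F9 and 24.0% in AI. The share of Fgf10 was 15.6% in CM_F9 and 3.85% in CM, 23.0% in OI_F9 and 6.51% in OI, and 14.4% in AI_F9 and 4.52% in AI. Fgf21 reached 8.18% ± 0.695 in AI_F9, against 0.407% ± 0.164 in AI (SD, n = 3 each). The summed FPKM of the 6 ligands was 117 ± 1.18 in CM_F9 and 93.1 ± 3.25 in CM, 106 ± 2.31 in OI_F9 and 86.8 ± 2.87 in OI, and 80.8 ± 1.26 in AI_F9 and 136 ± 8.75 in AI (SD, n = 3 each).

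**Figure D1:**
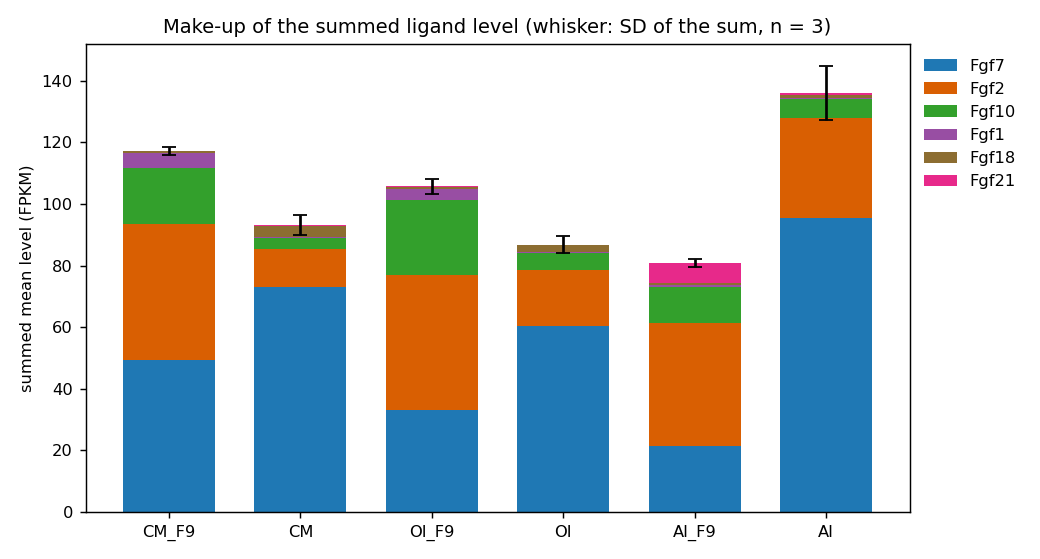
Mean FPKM of the 6 FGF ligands stacked for each group of 3 samples, with each FGF9 group to the left of its control and whiskers for the SD of the sum. Fgf7 holds most of the bar in the control groups, and Fgf2 and Fgf10 hold more of it in the FGF9 groups; the AI bar is the tallest and the AI_F9 bar the shortest.

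**Figure D2:**
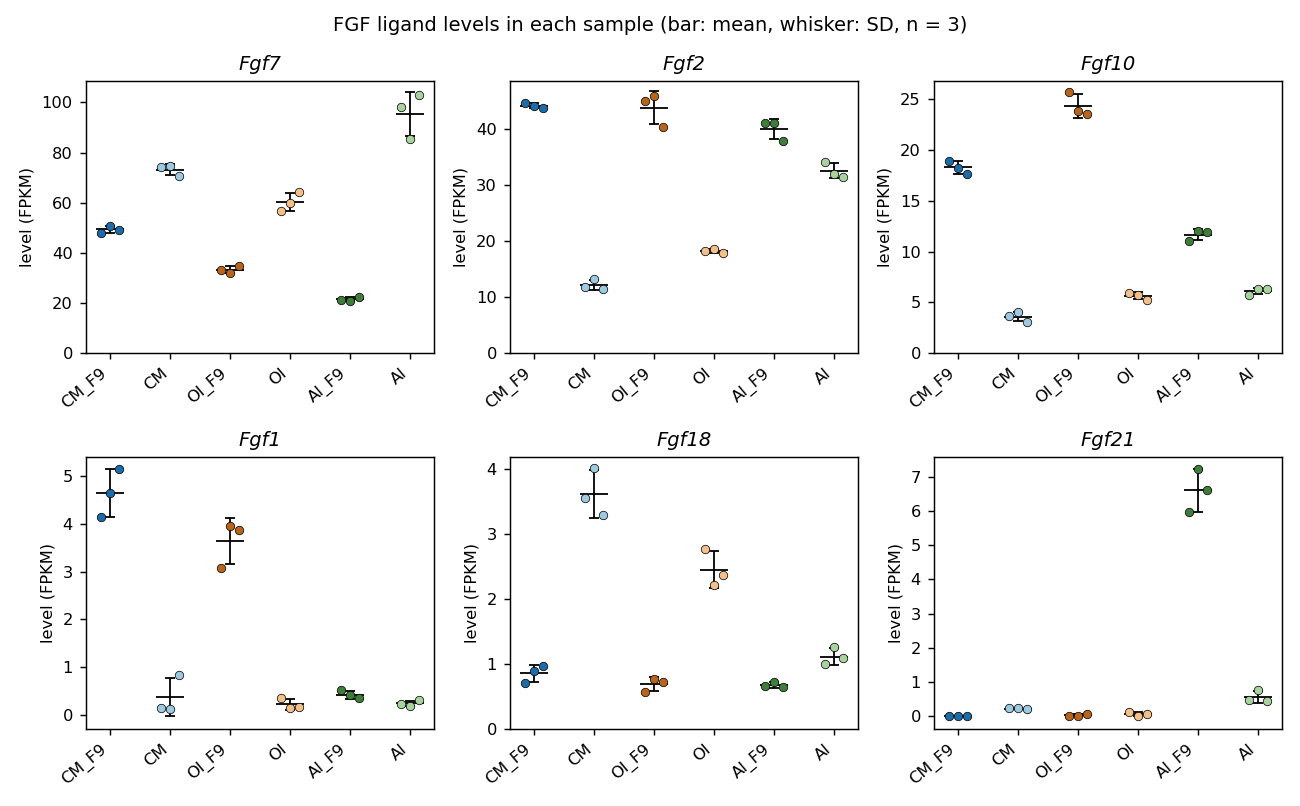
FPKM of each ligand in each of the 18 samples, 1 panel per gene with its own axis; points are samples, black bars the group means and whiskers the SD (n = 3). Fgf10 is higher with FGF9 in all 3 media, Fgf7 is lower, and Fgf21 stands out in the 3 AI_F9 samples at 5.98 to 7.23 FPKM.

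FGF9 was set against its control within each medium. A gene was called when its absolute log2 fold change was at least 1 (2-fold) and its adjusted p at most 0.05 in edgeR's quasi-likelihood test, with Benjamini-Hochberg adjustment over all genes tested, and "rose" and "fell" are used for called genes. In CM, 3 of the 6 ligands rose (Fgf1, Fgf2 and Fgf10) and 2 fell (Fgf18 and Fgf21), where 10.7% of all genes tested were called, 5.50% as higher and 5.16% as lower. In OI the same 3 rose and Fgf18 fell, beside 11.5% of all genes (5.48% higher, 6.07% lower). In AI, Fgf10 and Fgf21 rose and Fgf7 fell, beside 16.0% of all genes (6.66% higher, 9.32% lower). Across all 6 ligands the median log2 fold change was 0.76 in AI, 0.58 in CM and 0.15 in OI. The fitted changes of Fgf21 rest on few or no reads in CM and OI. Over the other 5 ligands the median was 1.80 in CM, 1.22 in OI and 0.50 in AI. Over all genes tested it was 0.02, 0.01 and 0.05 in these media. Ligands moved in both directions in each medium. Among the 5 in CM they ran from 3.58 for Fgf1 to -2.14 for Fgf18, so their median does not stand for a common direction. Fgf21, counted above among the falls in CM, did not pass the filter on low counts with only CM_F9 and CM in the fit.

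**Figure D3:**
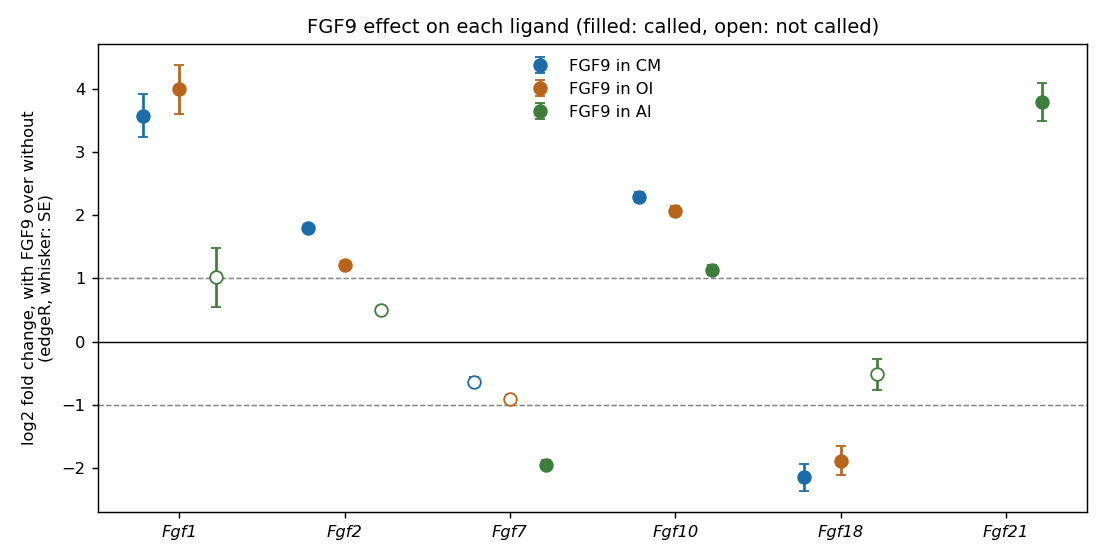
Log2 fold change of each ligand with FGF9 over without it in CM, OI and AI, from edgeR; whiskers are standard errors, dashed lines the fold threshold, filled points called genes. Fgf21 is drawn for AI only, where it had 363 reads with FGF9 and 29 without; Fgf10 is above the upper line in all 3 media and Fgf7 below the lower line in AI.

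Fgf10 (ENSMUSG00000021732, chromosome 13, 118806327 to 118928651, plus strand, GRCm39) was the only one of the 6 ligands called higher with FGF9 in all 3 media. Its FPKM was 18.95, 18.27 and 17.68 in CM_F9, against 3.63, 4.06 and 3.09 in CM. In OI_F9 it was 25.69, 23.85 and 23.53, against 5.91, 5.74 and 5.27 in OI. In AI_F9 it was 11.03, 12.01 and 11.94, against 5.76, 6.30 and 6.33 in AI. Every FGF9 sample stood above every control sample of its medium, and the order of groups was OI_F9, CM_F9, AI_F9, then AI and OI, which overlapped, and CM. In edgeR's test the log2 fold change was 2.29 ± 0.08 in CM (SE, adjusted p = 2.23e-16), 2.06 ± 0.08 in OI (adjusted p = 6.22e-16) and 1.13 ± 0.08 in AI (adjusted p = 2.90e-11). The call in AI was close to the fold threshold: scaling by library totals gave 0.93 and limma on log2(FPKM + 0.5) gave 0.88, both below it. Fgf1 and Fgf2 also stood above every control sample in each medium, but were not called in AI. Gm16263, a transcript on the opposite strand that overlaps Fgf10, averaged 3.57 FPKM in CM_F9 and 0.63 in CM, 5.64 in OI_F9 and 1.36 in OI, and 1.85 in AI_F9 and 0.537 in AI. No source used here states whether counting took the strand into account, and the overlap was read from gene spans, not exons. Whether reads of Fgf10 and Gm16263 were mixed was not tested.

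Fgf7 (ENSMUSG00000027208, chromosome 2, 125876578 to 125933105, plus strand), which shares its main receptor with Fgf10, went the other way. Its FPKM was 21.34, 20.81 and 22.26 in AI_F9, against 97.99, 85.48 and 102.79 in AI, a log2 fold change of -1.95 ± 0.07 (SE, edgeR adjusted p = 1.44e-16), or 3.85-fold lower. In CM_F9 it was 47.93, 50.72 and 49.28, against 74.14, 74.55 and 70.74 in CM. In OI_F9 it was 33.23, 31.81 and 34.55, against 56.79, 59.75 and 64.23 in OI. The groups did not overlap in any medium. In CM and OI the differences were 1.55-fold and 1.88-fold lower with FGF9 (edgeR adjusted p = 5.18e-08 and 1.24e-10), short of the fold threshold. All neighbours in the order of the 6 group levels were apart: AI was the highest, then CM, OI, CM_F9, OI_F9 and AI_F9. The macrophage marker list, 10 genes, was summed beside it: it was 388 to 425 FPKM in AI_F9 against 1350 to 1569 in AI, with all 10 genes lower, 405 to 476 in CM_F9 against 395 to 656 in CM with 2 lower, and 926 to 966 in OI_F9 against 1053 to 1294 in OI with 0 called, and its part in the Fgf7 values was not tested. Among all genes tested, 9.32% were called lower in AI, 5.16% in CM and 6.07% in OI. In bulk samples, fewer cells of a type and less RNA per cell cannot be told apart.

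Fgf2 (ENSMUSG00000037225, chromosome 3, 37402495 to 37464257, plus strand) lay between 37.91 and 45.95 FPKM in all 9 samples with FGF9. Its FPKM was 44.63, 44.04 and 43.71 in CM_F9, against 11.77, 13.13 and 11.49 in CM. In OI_F9 it was 45.03, 45.95 and 40.37, against 18.29, 18.51 and 17.81 in OI. In AI_F9 it was 41.03, 41.00 and 37.91, against 34.07, 32.04 and 31.48 in AI. The 3 FGF9 groups overlapped one after the other, and the 3 control groups did not overlap each other, with AI above OI and OI above CM. In edgeR's test Fgf2 rose with FGF9 in CM by a log2 fold change of 1.80 ± 0.06 (SE, adjusted p = 1.11e-16) and in OI by 1.22 ± 0.06 (adjusted p = 1.03e-13). In AI the log2 fold change of 0.50 ± 0.06 (adjusted p = 2.25e-07) was under the fold threshold. The differences between FGF9 groups were log2 0.01 ± 0.06 for AI_F9 over CM_F9, 0.03 ± 0.06 for AI_F9 over OI_F9 and -0.02 ± 0.06 for OI_F9 over CM_F9 (SE, edgeR adjusted p = 0.852, 0.631 and 0.858), and the sign of the first and the second turned with library-total scaling, to -0.14 and -0.13. Nudt6 and Fgf2os, which overlap Fgf2 on the opposite strand, stayed at or below 2.43 and 0.970 FPKM in every group mean.

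Fgf1 (ENSMUSG00000036585, chromosome 18, 38971726 to 39062525, minus strand) was near the bottom of the range without FGF9 and rose with it in CM and OI. Its FPKM was 4.15, 4.66 and 5.15 in CM_F9, against 0.15, 0.12 and 0.83 in CM. In OI_F9 it was 3.08, 3.95 and 3.88, against 0.35, 0.14 and 0.16 in OI. In AI_F9 it was 0.51, 0.41 and 0.34, against 0.22, 0.19 and 0.30 in AI. All FGF9 samples were above all controls of their medium, but in AI only by a small margin. CM_F9 and OI_F9 were apart from each other and from the other 4 groups, among which neighbours in rank overlapped. In edgeR's test the log2 fold change was 3.58 ± 0.35 in CM (SE, adjusted p = 1.19e-08), 3.99 ± 0.38 in OI (adjusted p = 9.79e-09) and 1.02 ± 0.47 in AI (adjusted p = 0.0780, not called). Replicate 3 of CM was 5.53 times the higher of the other CM samples in Fgf1, with 93 reads against 16 and 13, and of 14436 genes with at least 20 reads in that sample none other stood as far above the other CM samples. Without that sample the log2 fold change in CM was 5.0. Gm5820 and Arhgap26, opposite-strand genes that overlap Fgf1, had group means of up to 1.02 and 0.25 FPKM.

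Fgf18 (ENSMUSG00000057967, chromosome 11, 33067430 to 33097400, minus strand) fell with FGF9 in CM and OI. Its FPKM was 0.70, 0.89 and 0.96 in CM_F9, against 3.55, 4.01 and 3.28 in CM. In OI_F9 it was 0.56, 0.77 and 0.72, against 2.76, 2.21 and 2.37 in OI. In AI_F9 it was 0.65, 0.72 and 0.64, against 1.00, 1.25 and 1.08 in AI. The groups did not overlap in any medium. In edgeR's test the log2 fold change was -2.14 ± 0.21 in CM (SE, adjusted p = 2.00e-08), -1.89 ± 0.23 in OI (adjusted p = 4.03e-07) and -0.52 ± 0.25 in AI (adjusted p = 0.0941, not called). The 3 FGF9 groups overlapped at 0.56 to 0.96 FPKM, while without FGF9 the order was CM, OI and AI with no overlap. The chondrocyte markers, summed over 6 genes, were 75.9 to 78.4 FPKM in CM_F9 against 323 to 342 in CM, 116 to 126 in OI_F9 against 628 to 641 in OI, and 38.9 to 44.6 in AI_F9 against 122 to 124 in AI, and their part in the Fgf18 values was not tested. Fgf18 had 45 to 254 reads over the samples of a group, so its levels carry more counting error than those of Fgf2 or Fgf7.

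Fgf21 (ENSMUSG00000030827, chromosome 7, 45263310 to 45264914, minus strand) was at most 0.22 FPKM in every sample of CM_F9, CM, OI_F9 and OI, and rose with FGF9 in AI. Its FPKM was 5.98, 7.23 and 6.62 in AI_F9 (111, 136 and 116 reads), against 0.45, 0.75 and 0.43 in AI (8, 13 and 8 reads). The read ratio per library total was 12.2 (exact 95% interval 8.34 to 18.5, counting error only), and edgeR gave a log2 fold change of 3.79 ± 0.30 (SE, adjusted p = 8.34e-10). In CM_F9 all 3 samples had 0 reads, against 12 reads over the CM samples with 0.22, 0.22 and 0.20 FPKM. Taking 3 reads over the group as the upper limit of a count of 0, and the 12 reads of CM as exact, Fgf21 was 3.68-fold lower in CM_F9. Counting error in the CM reads is left out, so 3.68 is not a lower bound. The fall was called by edgeR (adjusted p = 0.00152). That call was lost in limma on log2(FPKM + 0.5), with -0.51, and on log2(FPKM + 1), with -0.28. In OI_F9 there was 1 read over the 3 samples, against 3 in OI, so no change could be seen at this depth (edgeR adjusted p = 0.423). Fgf21 passed the filter on low counts only where AI_F9 was in the fit. Fgf21 overlaps no other gene of the table.

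Targets of ATF4 and known inducers of Fgf21 were counted beside it. Among all genes tested, 6.66% rose and 9.32% fell in AI, 5.50% and 5.16% in CM, and 5.48% and 6.07% in OI. Of 10 ATF4 target genes, which serve amino acid synthesis and the stress response, 6 rose and 0 fell with FGF9 in AI, against 0 and 3 in CM and 0 and 2 in OI, and the median log2 fold change of the list was 1.33 in AI, -0.67 in CM and -0.64 in OI. Psat1, an enzyme of serine synthesis, averaged 78.5 ± 3.88 FPKM in AI_F9 and 19.4 ± 1.31 in AI (SD, n = 3 each), and Asns, asparagine synthetase, 70.7 ± 3.59 in AI_F9 and 27.6 ± 1.24 in AI. In CM, Trib3, a pseudokinase that restrains ATF4, Atf3, a stress-response factor, and Chac1, an enzyme that breaks down glutathione, fell (log2 fold change -1.81, -1.24 and -1.45), and in OI Atf3 and Chac1 fell (-1.11 and -1.83). Of 9 known inducers of Fgf21, 5 rose in AI: Ddit3 (1.32), a stress-response factor that is also in the ATF4 list, Pparg (1.11), the target of rosiglitazone, and, named after their values were seen, Ppara (2.23), Ppargc1a (1.14) and Mlxipl (1.30). In CM, Mlxipl, a carbohydrate-response factor, also rose (1.89) and Creb3l3, a liver transcription factor, fell (-2.95), and in OI only Creb3l3 of the list was called (-2.33). These levels were near the floor: Mlxipl averaged 0.217 FPKM in CM_F9 and 0.0567 in CM. Creb3l3 averaged 0.0333 in CM_F9 and 0.243 in CM, and 0.0367 in OI_F9 and 0.180 in OI. The motif in capitals in the Fgf21 start region above is that of ATF4 with a C/EBP protein, and whether it bears on these levels was not tested. Adipocyte markers moved beside these genes: their summed FPKM was 4026 to 4429 in AI_F9 against 1739 to 1947 in AI, and their part in the Fgf21 values was not tested.

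**Figure D4:**
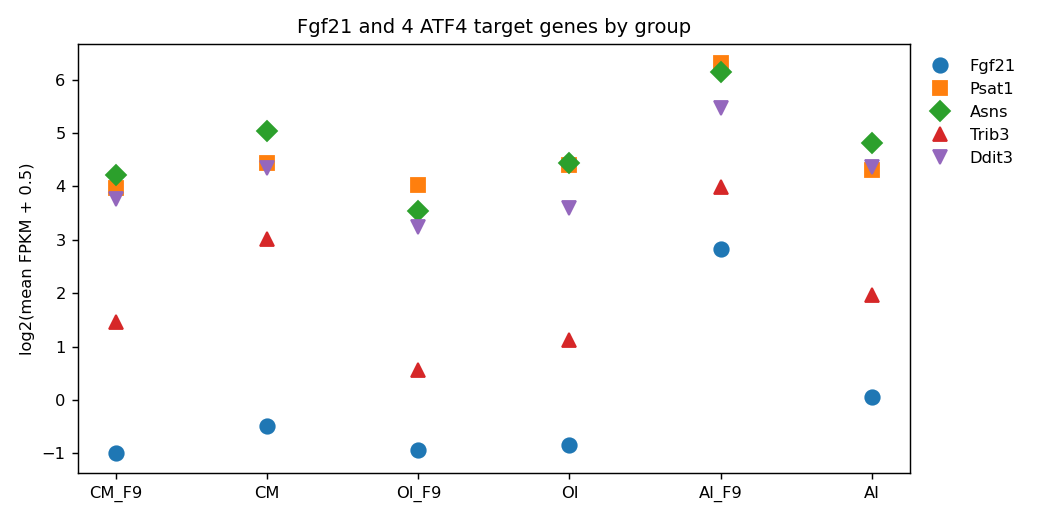
Group means (n = 3) of Fgf21, and of the ATF4 target genes Psat1, Asns, Trib3 and Ddit3, as log2(mean FPKM + 0.5), without error bars. All of them are highest in AI_F9, where Psat1 averages 78.5 FPKM, against 19.4 in AI. Of the ATF4 targets not drawn, Chac1 and Gdf15 are also highest in AI_F9. Phgdh and Atf3 are highest in CM (28.8 and 13.0 FPKM, against 19.4 and 8.23 in AI_F9). Sesn2 and Ddit4 are highest in AI (29.1 and 60.3 FPKM, against 19.4 and 58.2 in AI_F9).

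The FGF9 effects were then compared between media. Between AI and CM all 6 ligands differed, with 14.1% of all genes called in that contrast (5.66% with a higher effect in AI, 8.45% with a lower one). The effect in AI minus that in CM was -2.56 ± 0.61 for Fgf1, -1.30 ± 0.09 for Fgf2, -1.32 ± 0.10 for Fgf7, -1.15 ± 0.11 for Fgf10 and 1.63 ± 0.34 for Fgf18 on the log2 scale (SE, edgeR adjusted p = 0.00173 for Fgf1, 0.000399 for Fgf18 and at most 2.08e-08 for the others). Without the third CM sample, which stood apart in Fgf1, that difference was -3.99 for Fgf1. For Fgf1, Fgf2, Fgf10 and Fgf18 the effect was nearer 0 in AI, and for Fgf7 it was larger. For Fgf21 the effects had opposite signs in AI and CM, and the fitted difference has no stable size because CM_F9 had no read. Between AI and OI, 4 ligands were called (Fgf1, Fgf7, Fgf18 and Fgf21), beside 14.0% of all genes (6.00% higher, 8.04% lower), and without the first OI sample 2 were (Fgf7 at -0.99 and Fgf21 at 4.33 lost their calls, and Fgf7 also did without the third AI sample). In limma Fgf18 lost its call with 0.5 or 1 added to the FPKM (0.86 and 0.70), and Fgf10, at -0.93 in edgeR, was called in each limma fit (-1.17 to -1.10) and with library totals (-1.18). Between OI and CM 0 of 6 were called, beside 1.63% of all genes (0.499% higher, 1.13% lower), with 2 at an unadjusted p under 0.05 (Fgf2 and Fgf7) and 0 called by DESeq2, and the effect on Fgf2 was 0.58 smaller in OI (edgeR adjusted p = 8.51e-05). The 3 comparisons share the samples of each medium, so they are not independent. Scaling by library totals would shift the median of all genes by -0.20 for FGF9 in AI, by -0.27 for AI minus CM and by -0.25 for AI minus OI, and the values above are relative to TMM scaling.

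Without FGF9 the media differed in the ligands too. In AI against CM, Fgf2 rose (32.5 ± 1.36 FPKM in AI and 12.1 ± 0.877 in CM, SD, n = 3 each, log2 fold change 1.31), Fgf18 fell (1.11 ± 0.128 in AI and 3.61 ± 0.369 in CM, -1.81) and Fgf21 rose (29 reads in AI and 12 in CM, read ratio 2.55, exact 95% interval 1.26 to 5.49, edgeR adjusted p = 0.0306), where 22.2% of all genes were called (8.68% higher, 13.5% lower). The Fgf21 call was lost on leaving out any CM sample or the second AI sample, without a filter on low counts (edgeR adjusted p = 0.0635) and in limma on log2(FPKM + 0.5) and + 1 (0.54 and 0.34). With only AI and CM in the fit, Fgf21 did not pass the filter and was not tested. In AI against OI, 21.9% of all genes were called (7.80% higher, 14.1% lower), Fgf18 fell (log2 fold change -1.23) and Fgf21 rose (29 reads in AI and 3 in OI, ratio 9.53, interval 2.96 to 48.9). In OI against CM 0 of 6 were called, where 5.48% of all genes were (3.55% higher, 1.93% lower), with 5 at an unadjusted p under 0.05 and 0 called by DESeq2. Each pair of these comparisons shares the samples of a medium. Both AI against OI calls were lost in limma on log2(FPKM + 0.5), which left 0, and with only the groups compared in the fit Fgf18 was called and Fgf21 did not pass the filter on low counts, so it was not tested.

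The media were also compared under FGF9. In AI_F9 against CM_F9, with 32.8% of all genes called (13.3% higher, 19.5% lower), Fgf1 fell (log2 fold change -3.32) and Fgf7 fell (-1.04), and Fgf21 rose (363 reads in AI_F9 and 0 in CM_F9). The rise was 114-fold with the count of 0 set to its limit of 3 reads and the 363 reads taken as exact. In AI_F9 against OI_F9, with 31.4% called (12.7% higher, 18.7% lower), Fgf1 fell (-2.95) and Fgf21 rose, with 363 reads in AI_F9 and 1 in OI_F9 (ratio 349, exact 95% interval 62.3 to 13833). Fgf10 had a log2 fold change of -0.90 in this comparison (edgeR adjusted p = 2.59e-10), and -1.06 with library-total scaling, past the fold threshold. In OI_F9 against CM_F9, with 4.28% called (2.31% higher, 1.96% lower), 0 of the 6 were called, 2 had an unadjusted p under 0.05 and DESeq2 called 0.

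Other members of the FGF family, secreted or intracellular, were read from a list of 16 genes. Of these, 5 passed the filter and 4 had a group mean of at least 1 FPKM. In CM and in OI 1 of the 5 rose and 3 fell, and in AI 0 rose and 2 fell. The shares of all genes in CM, OI and AI were 5.50%, 5.48% and 6.66% higher and 5.16%, 6.07% and 9.32% lower. Fgf23, a bone-derived hormone of phosphate balance, rose with FGF9 in CM (6.48 ± 1.45 FPKM in CM_F9 and 0.0467 ± 0.0153 in CM, SD, n = 3 each) and in OI (7.36 ± 0.133 in OI_F9 and 0.0900 ± 0.0436 in OI), and stayed at 0.0467 in AI_F9 and 0.0200 in AI. Fgf14, an intracellular FGF that binds sodium channels, fell in all 3 media (log2 fold change -1.41 in CM, -1.98 in OI and -1.10 in AI), as did Fgf11, another intracellular member (-1.67 in CM, -1.10 in OI and -1.24 in AI). Fgf5, named after its values were seen, fell in CM and OI (-2.55 and -2.56), from means of 0.713 FPKM in CM and 0.133 in OI. Fgf13, likewise intracellular, was not called in any medium. Fgf9 itself had a group mean of at most 0.103 FPKM, and did not pass the filter.

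The receptors and klotho genes differed in how they moved with FGF9. Of 5 tested, 2 fell in every medium: Fgfr2, the main receptor of FGF7 and FGF10, averaged 6.24 ± 0.265 FPKM in CM_F9 and 28.6 ± 0.862 in CM (SD, n = 3 each), 7.38 in OI_F9 and 38.3 in OI, and 7.60 in AI_F9 and 56.0 in AI. Fgfr3 fell with log2 fold changes of -2.17, -2.03 and -2.66. Fgfr1 was not called in any medium. It averaged 45.2 ± 0.778 FPKM in CM_F9 and 21.7 ± 1.99 in CM (SD, n = 3 each), and 50.9 ± 0.924 in OI_F9 and 24.9 ± 1.97 in OI. These log2 fold changes, 0.99 in CM and 0.98 in OI, were just short of the fold threshold (edgeR adjusted p = 3.94e-12 and 4.54e-12). In AI_F9 Fgfr1 averaged 46.8 ± 2.85 and in AI 61.6 ± 1.58 (-0.19, edgeR adjusted p = 0.0118). Its effect of FGF9 in AI minus that in CM was called lower (-1.18). Klb, chosen after its values were seen, rose in AI and in CM (log2 fold change 1.91 and 2.51), with 17.6 ± 0.413 FPKM in AI_F9 and 5.39 ± 0.767 in AI, and was at most 0.613 FPKM in the group means of CM_F9, CM, OI_F9 and OI. The group means of both Klb and Fgf21 were highest in AI_F9. Whether reads of Fgfr2 come from the IIIb or the IIIc form was not measured.

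**Figure D5:**
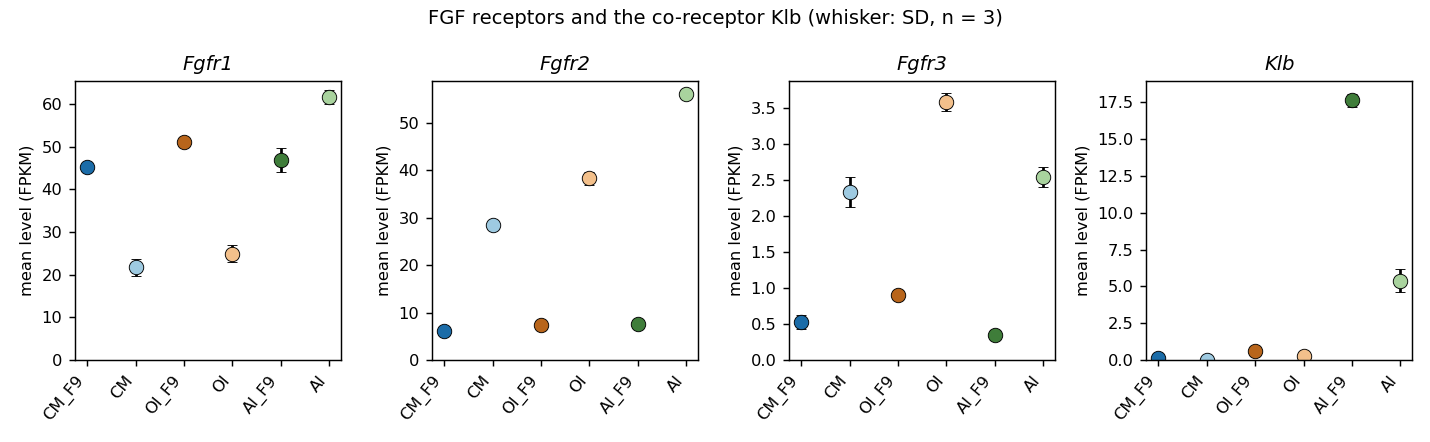
Mean FPKM of Fgfr1, Fgfr2, Fgfr3 and Klb in each group, 1 panel per gene with its own axis; whiskers are the SD (n = 3). Fgfr2 is lower with FGF9 in all 3 media, at 7.60 FPKM on average in AI_F9 and 56.0 in AI, and Klb is highest in AI_F9 at 17.6 FPKM.

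Around the ligands, FGF carriers and heparan sulfate proteoglycans (12 tested) had 0 rises in any medium and 1, 1 and 4 falls in CM, OI and AI, with Gpc3, a glypican, falling in CM and OI and in AI the syndecans Sdc2 and Sdc3 (log2 fold change -1.35 and -1.10) and, named after their values were seen, the glypicans Gpc1 and Gpc2 (-1.19 and -1.48). Gpc3 was low, with 0.457 FPKM on average in CM and 0.487 in OI. Of 12 heparan sulfate enzymes 0, 0 and 1 fell, the 1 being Hs6st2, a sulfotransferase (-1.75 in AI). Feedback and target genes of FGF signalling rose, 12 of 14 in CM and in OI and 7 of 14 in AI, among them Spry4, a feedback inhibitor of receptor signalling (3.43, 2.67 and 1.76 in CM, OI and AI), and Etv1, an ETS transcription factor (3.07, 3.54 and 2.11). These lists were written by topic and no test of a list was made.

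Over the 18 samples, the genes closest to each ligand were named by Pearson's r of log2(FPKM + 0.5) among 12102 genes, and r is a description because samples of 1 group share their treatment. They were Col25a1, Spred1 and Ank3 for Fgf1 (r = 0.988, 0.975 and 0.974), Zadh2, Fbxo28 and Eva1c for Fgf2 (0.977, 0.967 and 0.966), Cnn3, Frmd6 and Plk2 for Fgf7 (0.983, 0.982 and 0.980), and Gsdme, Slc5a3 and Qsox1 for Fgf10 (0.977 each). For Fgf18 they were Scg2, Lgr5 and Acta1 (0.982, 0.981 and 0.976), and for Fgf21 Cth, Rasef and Smim41 (0.988, 0.983 and 0.981). Cth, Rasef and Smim41 averaged 20.9, 1.04 and 2.45 FPKM in AI_F9, against 2.62, 0.230 and 0.353 in AI. Like Fgf21, these genes were lower still in the other groups, so r here mostly follows AI_F9. Cth makes cysteine from cystathionine, and Lgr5 is a receptor of the Wnt pathway. Among the 6 ligands, Fgf2 and Fgf18 ran opposite to each other (r = -0.97), and Fgf2 and Fgf10 ran together (r = 0.88), over the same 18 samples.

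The libraries held 16719561 to 20526502 reads. In the 10 stromal markers the summed FPKM was 351 to 362 in AI_F9 and 669 to 688 in AI, and 929 to 946 in CM_F9 and 1095 to 1122 in CM. Macrophage markers were present in every library, from 388 to 1569 FPKM for the 10 summed. With FGF9, in CM, OI and AI, 6, 6 and 5 of 6 chondrocyte markers fell, 5, 6 and 4 of 7 smooth muscle and pericyte markers, and 2, 2 and 6 of 7 endothelial markers, with 0 rises in these lists. Of 9 adipocyte markers 6, 4 and 5 rose and 0 fell, and of 9 osteoblast markers 3 rose in each medium and 3, 3 and 4 fell. Of the 10 stromal markers 4, 1 and 1 rose and 1, 1 and 3 fell. Beside these lists, 5.50%, 5.48% and 6.66% of all genes rose in CM, OI and AI, and 5.16%, 6.07% and 9.32% fell. Which cells made the ligand transcripts was not measured.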

How the data were processed

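RNA-seq was done on mouse BMSCs from 6 groups of 3 samples. Libraries were made from poly(A) RNA. The authors used cutadapt 1.9.1 for trimming, HISAT2 2.2.1 for alignment (genome GRCm39) and HTSeq 0.6.1 for counting. They deposited the read count and the FPKM of each of 56691 genes, with the exonic length of each gene. The deposited FPKM were checked against count, length and library total: 100% of values of at least 5 agreed within 1%. FPKM is not corrected for composition, and TMM factors were 0.906 to 0.928 in AI_F9 and 1.05 to 1.06 in AI. No mean column or authors' comparison was used.

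Counts were tested with edgeR 4.0.16 (R 4.3.3): filterByExpr by group, TMM scaling, a model of all 18 samples with a mean for each group, quasi-likelihood test, Benjamini-Hochberg adjustment over the genes tested. Standard errors were not given by edgeR but derived as the absolute log2 fold change over the square root of its F statistic. They can be too small where the change is near 0. For 3 against 3 samples the smallest two-sided p of an exact permutation test is 0.1, and no such test was made. Intervals of read ratios are exact 95% intervals and cover counting error only. Alternatives were DESeq2 1.42.0, library totals, upper quartile scaling, no filter, a stricter filter (at least 10 reads in 3 samples and a group mean of at least 1 FPKM), limma 3.58.1 on log2(FPKM + 0.5), + 0.1 and + 1, a replicate block, only the groups compared, and leaving out each sample. No 2 libraries agreed within sampling noise. Same-numbered samples deviated together for FGF9 in OI (correlation 0.119 to 0.171 in the 3 pairs, against -0.110 to -0.036 between different numbers). This pairing comes from the data and not from the labels, and the replicate block changed no call there. Only the edgeR fit for FGF9 in AI was tested on simulated data, and the other comparisons and alternatives were not. Promoter sequences were read from RefSeq (GRCm38.p6), of which Fgf1 had no entry. The 6 ligands and the gene lists were chosen with earlier results of these data known. The text names the 6 ligands and other FGF family members with a group mean of at least 1 FPKM. Also named are the 2 called members of each pathway list with the smallest adjusted p per FGF9 comparison. The 3 genes most correlated with each ligand are named too.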

Additional observations from a re-analysis of the deposited data

Results flagged for a closer look

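The effect of FGF9 on a ligand differed between media for each of the 6 genes, by an edgeR test of the difference itself at an adjusted p of at most 0.05, whether or not the fold threshold was met. By the same rule 39.9% of all genes tested passed in AI minus CM, about as many in AI minus OI, and 5.48% in OI minus CM. Passing this rule was thus common among all genes in the comparisons with AI, and is not particular to these ligands. The values below are log2 differences of the effect. In AI minus CM they were -2.56 for Fgf1, -1.30 for Fgf2, -1.32 for Fgf7, -1.15 for Fgf10, 1.63 for Fgf18 and 8.80 for Fgf21. In AI minus OI they were -2.97 for Fgf1, -0.71 for Fgf2, -1.04 for Fgf7, -0.93 for Fgf10, 1.37 for Fgf18 and 5.13 for Fgf21. In OI minus CM it was -0.58 for Fgf2. Without CM replicate 3 the value for Fgf1 in AI minus CM was -3.99. For Fgf21 both values depend on the prior count, since CM_F9 had 0 reads and OI_F9 had 1. AI enters both sets, so the comparisons share samples.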

How the results depend on the processing

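Of 72 results (6 ligands in 12 comparisons), 50 kept their direction and call in every setting run. The number of ligands called was 1 for OI against CM without FGF9 in limma on log2(FPKM + 0.1), where edgeR gave 0. For AI against OI without FGF9 it was 0 in limma with 0.5 or 1 added and 1 with only the groups compared, where the edgeR fit of all samples gave 2. With only the groups compared, Fgf21 did not pass the filter in any comparison without AI_F9 and was not tested there. Leaving out a sample gave 2 to 4 for the FGF9 effect in AI minus OI and 2 to 3 for AI against CM without FGF9.

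Signs turned only in log2 differences that were not called in the fit of all samples. Fgf1 in AI against OI was -0.0016 with upper quartile scaling and -0.21 to 0.57 on leaving out a sample. On leaving out a sample, Fgf1 was -1.33 to 0.65 in OI against CM, -1.15 to 0.67 in AI against CM and -1.01 to 0.97 for the FGF9 effect in OI minus CM, each of them turned by CM replicate 3. In AI against CM, Fgf1 was called without CM replicate 1 (-1.13, edgeR adjusted p = 0.0433) or CM replicate 2 (-1.15, adjusted p = 0.0318). The FGF9 effect on Fgf1 in OI minus CM was -0.13, -0.062 and -0.15 in limma with 0.5, 0.1 and 1 added. Fgf2 in AI_F9 against CM_F9 was -0.14 with library totals and in limma with each constant, -0.026 with upper quartile scaling, -0.0097 without a filter and -0.020 to 0.041 on leaving out a sample. Fgf2 in AI_F9 against OI_F9 was -0.13 with library totals and in limma, and -0.055 to 0.062 on leaving out a sample. Fgf2 in OI_F9 against CM_F9 was -0.051 to 0.037, and Fgf10 in AI against OI -0.013 to 0.064, on leaving out a sample. Fgf18 in AI_F9 against OI_F9 was -0.023 with library totals and -0.013, -0.016 and -0.0097 in limma with 0.5, 0.1 and 1 added. The cause of these changes was not tested.

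Outside FGF9 in OI, the correlation of same-numbered deviations was not over 0.1 in every pair of any comparison (-0.0014 to 0.199). In AI against OI without FGF9, replicate 3 of both groups correlated at 0.199, against -0.118 to -0.100 for its pairs with other numbers. Whether the number stands for more than a label was not tested. With the replicate number as a block, Fgf1 in AI was called (1.04), so 4 ligands were called for FGF9 in AI where the fit without the block gave 3, and no other call changed. Depth limits Fgf21, which had 0 to 12 reads per group outside AI, and Fgf18.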
